A study of Homo sapiens with 4 samples.

Results

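The D-type cyclins, the E-type cyclins and the inhibitors of cyclin-dependent kinases (CDKs) set the pace at which a cell leaves G1 and starts DNA synthesis. The 10 genes described here are CCND1, CCND2 and CCND3, CCNE1 and CCNE2, CDKN1A, CDKN1B and CDKN1C, and CDKN2C and CDKN2D. They were taken by symbol from the deposited gene counts, and all 10 were found among 23228 listed symbols. Transcript levels were measured by sequencing ribosome-depleted RNA of A673 cells, a line established from Ewing sarcoma and driven by the EWS-FLI1 fusion. The siSMPD1 library comes from cells given siRNA against SMPD1, which encodes acid sphingomyelinase, and the control_SMPD1 library from cells given scrambled siRNA. The siGPR64 library comes from cells given siRNA against GPR64, an adhesion G protein-coupled receptor gene, and the control_GPR64 library from a further scrambled transfection. The labels do not say which libraries were prepared together, and each knockdown is set against the control that its title points to, called its paired control. All cells had lipid-based transfection for 48 h in IMDM with 10% serum, 10 µg/ml insulin and 55 µM beta-mercaptoethanol. Each group is 1 library of 1 cell line, so no difference below has a replicate check, and none is given a p-value.

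In G1, mitogens raise D-type cyclins, which activate CDK4 and CDK6. These kinases begin the phosphorylation of the retinoblastoma protein RB1, which frees E2F factors to transcribe genes of DNA replication and the E-type cyclins, and the E-type cyclins then activate CDK2. Inhibitors of the INK4 family, encoded by CDKN2C (p18) and CDKN2D (p19), bind CDK4 and CDK6 alone, while those of the Cip/Kip family, encoded by CDKN1A (p21), CDKN1B (p27) and CDKN1C (p57), bind whole cyclin-CDK complexes, above all those with CDK2. CDKN1A is a classical target of the p53 protein. Ewing sarcoma cells are known for abundant cyclin D1, and A673 is known to have lost CDKN2A and functional p53.

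Levels are given in CPM, the usual unit of reads relative to library size, after TMM scaling, which estimates each library's size from genes that differ little. The libraries differ in depth, with 18849264 gene counts in siSMPD1 and 19614913 in control_SMPD1, against 2534861 in siGPR64 and 2882854 in control_GPR64. The level that a count of 0 allows is 0.159 CPM in siSMPD1 and 0.156 CPM in control_SMPD1, but 1.18 CPM in siGPR64 and 1.03 CPM in control_GPR64. Each target was lower in its own knockdown library than in the paired control, SMPD1 at 91.7 CPM in siSMPD1 against 414 CPM in control_SMPD1, and GPR64 at 50.1 CPM in siGPR64 against 108.6 CPM in control_GPR64. SMPD1 stood at 52.8 CPM in control_GPR64, under its level in siSMPD1, and GPR64 at 388 CPM in control_SMPD1, so the controls stand apart from each other at both targeted genes. In siGPR64, SMPD1 stood at 231.9 CPM, 4.38-fold above control_GPR64, a wider gap than the 2.16-fold at GPR64 itself. In siSMPD1, GPR64 stood at 539 CPM. Of 11 Ewing sarcoma markers, 9 were at 1 CPM or more in every library, CCK fell short of that in siGPR64 with 1 count, and CD99 was listed at 0 in all 4. Reads without a unique alignment, 20.1% to 30.1% of entries, were counted to no gene, and their part in the CD99 value was not tested. The labels give the tissue as muscle, yet the muscle regulators MYOD1, MYOG, MYF5 and MYF6 had 0 counts in every library and the summed level of 12 muscle markers was 1.71 to 2.5 CPM.

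A ratio between libraries is called past the rule of size when the mean level is at least 1 CPM, the fitted ratio is at least 2-fold and the 95% counting interval excludes equality. Intervals in brackets cover counting error only and hold no spread between cultures. In bulk RNA fewer cells in a phase of the cycle and less RNA per cell cannot be told apart. The 2 scrambled libraries differed from each other past this rule at 15.4% of measured genes, which is more than the 3.6% in siSMPD1 against control_SMPD1 and the 11.7% in siGPR64 against control_GPR64. Among the 10 genes, 1 was past the rule in siSMPD1, 3 of the 9 measured were in siGPR64, and 2 were between the scrambled libraries, where CDKN1A was higher in control_GPR64 (7.02% of genes were) and CCNE2 lower (8.33% were). CCND2 was not measured in the GPR64 pair, its mean level there being under the minimum.

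The promoters of CCNE1 and CDKN1A are shown because these are 2 of the 3 genes past the rule in the GPR64 pair, CCNE1 the one that was higher in siGPR64 against both controls and CDKN1A the one whose direction turns with the control. The third is CCNE2, and promoter windows on its chromosome were left out. Each window runs from 250 bases before to 50 bases after an annotated start, on the plus strand of GRCh38.p14 from RefSeq, while the counts were made on hg19. Capitals mark the GC box, GGGCGG on either strand, which Sp-family factors can bind.
CCNE1, chr19:29811741-29812040: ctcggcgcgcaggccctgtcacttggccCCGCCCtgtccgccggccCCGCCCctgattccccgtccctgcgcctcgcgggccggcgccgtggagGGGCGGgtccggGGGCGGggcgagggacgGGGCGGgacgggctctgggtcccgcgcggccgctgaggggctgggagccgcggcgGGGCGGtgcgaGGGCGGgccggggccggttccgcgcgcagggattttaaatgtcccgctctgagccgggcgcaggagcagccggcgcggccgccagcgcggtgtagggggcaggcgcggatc
CDKN1A, chr6:36678464-36678763: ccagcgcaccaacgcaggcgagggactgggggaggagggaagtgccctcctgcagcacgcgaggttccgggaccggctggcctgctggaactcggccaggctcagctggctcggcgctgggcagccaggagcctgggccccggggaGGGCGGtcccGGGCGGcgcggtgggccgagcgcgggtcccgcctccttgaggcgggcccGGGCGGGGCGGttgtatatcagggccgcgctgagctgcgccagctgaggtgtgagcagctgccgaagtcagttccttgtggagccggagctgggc
The CCNE1 window holds 7 GC boxes and the CDKN1A window 4, in capital runs that join where matches touch or overlap. Of 34943 promoter windows of this length, 44.9% hold at least 1, and the median number is 0. Such numbers are not particular to these 2 genes, as a CDKN2C window holds 6 and a CCND3 window 5. The G and C content of the 34943 windows was not measured. CCNE1 is 81.0% G and C over this window and CDKN1A 74.3%. Neither window holds TTTNNCGC on either strand, a form of the E2F motif found in 6.85% of windows, nor TATAAA, found in 11.6%. Among the 10 windows read, which cover 6 of the genes and not CCNE2, the single window with TTTNNCGC was that of CDKN2D.

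**Figure D1:**
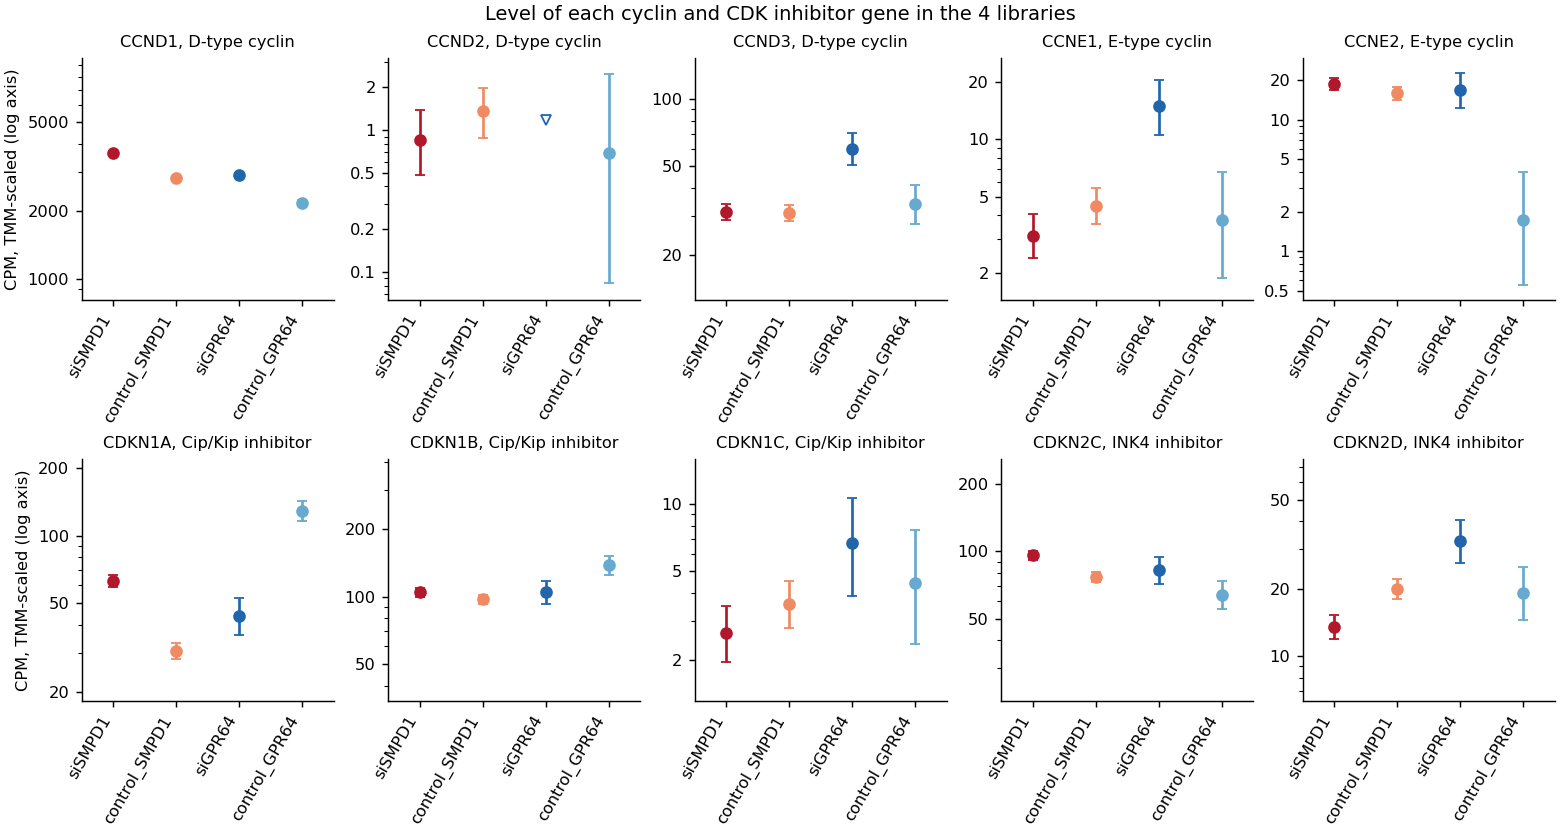
Level of each gene in CPM after TMM scaling (log axis, own scale per panel) in siSMPD1, control_SMPD1, siGPR64 and control_GPR64, with 1 library per group. Points are levels, bars exact 95% Poisson intervals for counting error, and the open triangle marks the limit that 0 counts allow; CDKN1A is highest at 129.1 CPM and CCNE2 lowest at 1.71 CPM in control_GPR64, and CCNE1 is highest at 14.9 CPM in siGPR64.

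Cyclin D1 transcripts dominated the D-type class in every library. CCND1 had 68611 counts in siSMPD1 and 54134 in control_SMPD1, or 3636 and 2818 CPM. It had 7410 counts in siGPR64 and 6387 in control_GPR64, or 2903 and 2188 CPM. Per kilobase of merged exons in GENCODE 29, CCND1 ranked 7th in siSMPD1, 12th in control_SMPD1, 12th in siGPR64 and 18th in control_GPR64 among 19747 genes with a length. CCND1 was 1.29-fold higher in siSMPD1 than in control_SMPD1 (1.28 to 1.3) while in siGPR64 it stood 1.33-fold above control_GPR64 (1.28 to 1.37). Control_GPR64 was 1.29-fold lower than control_SMPD1 (1.255 to 1.322), a difference of the same size between libraries that share a treatment label. None of these is past the rule of size, and the level in siGPR64 was within 1.03-fold of that in control_SMPD1. ORAOV1 (now LTO1) lies on the other strand and its exons overlap 10.3% of the CCND1 exon bases in GENCODE 29. It had 35.9 CPM in siSMPD1 and 34.5 CPM in control_SMPD1, and 29.8 CPM in siGPR64 and 29.1 CPM in control_GPR64, and its part in the CCND1 values was not tested.

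CCND3, the D-type cyclin best known from blood cells, had 31.4 CPM in siSMPD1 and 30.9 CPM in control_SMPD1, on 592 and 593 counts. It had 59.9 CPM in siGPR64 and 33.9 CPM in control_GPR64, on 153 and 99 counts. The siGPR64 library is thus alone at the high level, and the counting intervals of the other 3 overlap from one to the next. CCND3 was 1.76-fold higher in siGPR64 than in control_GPR64 (1.36 to 2.3) and 1.94-fold higher than in control_SMPD1 (1.61 to 2.32). Both ratios stay under 2-fold. CCND2 was close to absent, with 16 counts in siSMPD1 and 26 in control_SMPD1, or 0.848 and 1.35 CPM. It had 0 counts in siGPR64 and 2 in control_GPR64, at or under the limit of detection, so no ratio is given for that pair. Per kilobase in control_SMPD1, CCND1 stood at 583 CPM, CCND3 at 5.32 CPM and CCND2 at 0.189 CPM. CCND1 held 99.1% of the D-type reads in siSMPD1 (99.0 to 99.2, exact binomial), 98.9% in control_SMPD1 (98.8 to 99.0), 98.0% in siGPR64 (97.6 to 98.3) and 98.4% in control_GPR64 (98.1 to 98.7).

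The E-type cyclins differed most between the libraries. CCNE1 had 59 counts in siSMPD1 and 86 in control_SMPD1, or 3.13 and 4.48 CPM. It had 38 counts in siGPR64 and 11 in control_GPR64, or 14.9 and 3.77 CPM. The siGPR64 level lies above the other 3, whose counting intervals overlap. CCNE1 was 3.81-fold higher in siGPR64 than in control_GPR64 (1.98 to 8.57) and 3.3-fold higher than in control_SMPD1 (2.21 to 4.93), past the rule against both controls. The scrambled libraries lay within 1.19-fold of each other at this gene (log2 ratio -0.25 in control_GPR64 over control_SMPD1, -1.30 to 0.66). Only 1.09% of measured genes were past the rule and higher in siGPR64 than in each of the other 3 libraries, and CCNE1 is the single member among them. In siSMPD1 CCNE1 was 1.43-fold lower than in control_SMPD1 (1.02 to 2.03), short of the rule.

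CCNE2 behaved otherwise. It had 354 counts in siSMPD1 and 305 in control_SMPD1, or 18.8 and 15.9 CPM. It had 43 counts in siGPR64 and 5 in control_GPR64, or 16.8 and 1.71 CPM. Here control_GPR64 is the library apart, and the other 3 overlap within counting error. CCNE2 was 8.98-fold higher in siGPR64 than in control_GPR64 (3.9 to 31.8), but 1.06-fold higher than in control_SMPD1, with a log2 interval of -0.41 to 0.55. The 2 scrambled libraries differed by 9.06-fold (3.93 to 28.8), with control_GPR64 the lower. In siSMPD1 CCNE2 was 1.18-fold higher than in control_SMPD1 (1.01 to 1.38) and 10.7-fold higher than in control_GPR64 (4.65 to 33.9). Of measured genes, 3.19% were past the rule and lower in control_GPR64 than in each of the other libraries. INTS8, a subunit gene of the Integrator complex, lies on the other strand, and its exons cover 37.0% of the CCNE2 exon bases in GENCODE 29. INTS8 had 93.2 CPM in siSMPD1 and 84.0 CPM in control_SMPD1, and 83.0 CPM in siGPR64 and 47.6 CPM in control_GPR64, so it was lowest in the same library. With no strand setting given, reads of the pair cannot be told apart where they overlap, and the part of this in the CCNE2 values was not tested.

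The balance of the E-type cyclins within a library does not depend on scaling. CCNE2 held 85.7% of the E-type reads in siSMPD1 (82.0 to 88.9) and 78.0% in control_SMPD1 (73.6 to 82.0), with intervals that meet at their ends. It held 53.1% in siGPR64 (41.7 to 64.3) and 31.2% in control_GPR64 (11.02 to 58.66), where the intervals overlap on 81 and 16 reads. The share was thus lower in both libraries of the GPR64 pair than in both of the SMPD1 pair. Per kilobase, CCNE1 stood at 5.84 CPM and CCNE2 at 3.83 CPM in siGPR64, whereas in control_SMPD1 CCNE1 stood at 1.75 CPM and CCNE2 at 3.61 CPM. E-type reads numbered 12.9 per 100 Cip/Kip reads in siSMPD1 (11.6 to 14.2) and 15.4 in control_SMPD1 (13.9 to 17.2), and 20.4 in siGPR64 (15.9 to 26.0) and 2.01 in control_GPR64 (1.15 to 3.29).

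**Figure D2:**
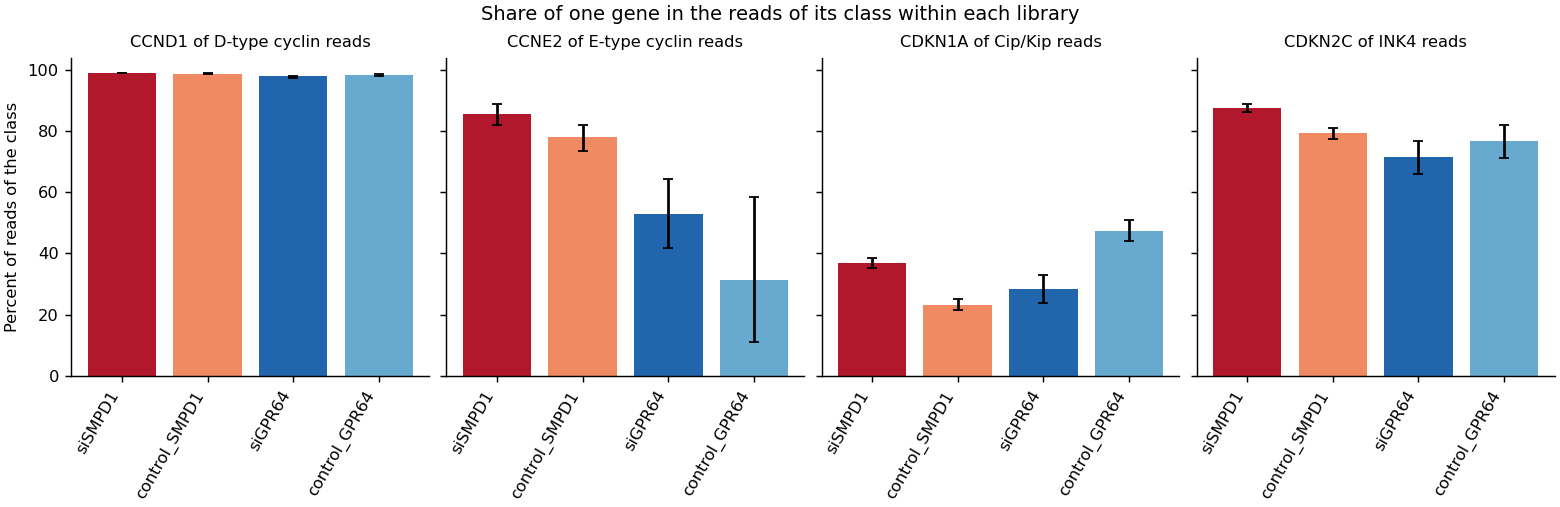
Share of 1 gene in the reads of its class within each library, in percent, with exact 95% binomial intervals and 1 library per bar, in the order siSMPD1, control_SMPD1, siGPR64 and control_GPR64. CCND1 holds 98.0% to 99.1% of D-type reads throughout, CCNE2 holds 31.2% to 85.7% of E-type reads, and CDKN1A has its largest share of the Cip/Kip reads in control_GPR64, at 47.5%, against 23.3% in control_SMPD1.

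CDKN1A, the inhibitor gene with the widest differences, ordered the libraries without overlap of their counting intervals. It had 1186 counts in siSMPD1 and 589 in control_SMPD1, or 62.8 and 30.7 CPM. It had 112 counts in siGPR64 and 377 in control_GPR64, or 43.9 and 129.1 CPM. The 2 scrambled libraries are thus the highest and the lowest of the 4, and both knockdown libraries lie between them. Control_GPR64 was 4.21-fold higher than control_SMPD1 (3.69 to 4.8), a wider gap than that of either knockdown to its paired control. In siSMPD1 CDKN1A was past the rule at 2.05-fold higher than control_SMPD1 (1.86 to 2.27), but 2.05-fold lower than control_GPR64 (1.82 to 2.31). In siGPR64 it was 2.94-fold lower than control_GPR64 (2.38 to 3.67) but 1.43-fold higher than control_SMPD1 (1.16 to 1.75). The direction of CDKN1A therefore turns with the control library in both knockdowns. Of measured genes, 1.94% were past the rule and higher in control_GPR64 than in each of the other 3 libraries, CDKN1A among them.

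CDKN1B, whose protein is controlled mainly through its turnover, was the most even of the inhibitors. It had 104.7 CPM in siSMPD1 and 97.4 CPM in control_SMPD1, on 1975 and 1872 counts. It had 104.6 CPM in siGPR64 and 138.4 CPM in control_GPR64, on 267 and 404 counts. Control_GPR64 alone stood higher, at 1.42-fold over control_SMPD1 (1.27 to 1.58), and siGPR64 was 1.32-fold lower than control_GPR64 (1.13 to 1.55). The share of CDKN1A among Cip/Kip reads put the libraries in the same order as the CDKN1A level. That share was 36.9% in siSMPD1 (35.3 to 38.6) and 23.3% in control_SMPD1 (21.65 to 24.98), and 28.3% in siGPR64 (23.9 to 33.0) and 47.5% in control_GPR64 (44.0 to 51.0). Set against cyclin D1, there were 1.73 CDKN1A reads per 100 CCND1 reads in siSMPD1 (1.63 to 1.83) and 1.09 in control_SMPD1 (1.0 to 1.18). There were 1.51 in siGPR64 (1.24 to 1.82) and 5.9 in control_GPR64 (5.31 to 6.55).

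CDKN1C, an imprinted gene, was low throughout. It had 2.65 CPM in siSMPD1 and 3.59 CPM in control_SMPD1, on 50 and 69 counts, and 6.66 CPM in siGPR64 and 4.45 CPM in control_GPR64, on 17 and 13 counts. Counting intervals of neighbours in this order overlap, and at this depth no difference within a pair was detectable. In siSMPD1 it was 1.35-fold lower than in control_SMPD1, with a log2 interval of -0.99 to 0.11. In siGPR64 it was 1.48-fold higher than in control_GPR64, with a log2 interval of -0.55 to 1.74.

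Of the INK4 genes, CDKN2C had 96.3 CPM in siSMPD1 and 76.6 CPM in control_SMPD1, and 82.3 CPM in siGPR64 and 64.1 CPM in control_GPR64. The 4 libraries formed one run of overlapping counting intervals between neighbours in the order siSMPD1, siGPR64, control_SMPD1 and control_GPR64. Relative to control_SMPD1, CDKN2C was 1.26-fold higher in siSMPD1 (1.17 to 1.35). Relative to control_GPR64, it was 1.28-fold higher in siGPR64 (1.05 to 1.57), and both ratios are under the rule. Between the scrambled libraries it was 1.2-fold lower in control_GPR64 (1.03 to 1.4). CDKN2D had 13.5 CPM in siSMPD1 and 19.9 CPM in control_SMPD1, on 254 and 382 counts. It had 32.5 CPM in siGPR64 and 19.2 CPM in control_GPR64, on 83 and 56 counts. The scrambled libraries lay within 1.04-fold of each other at CDKN2D, with siSMPD1 below and siGPR64 above them. In siSMPD1, CDKN2D was 1.48-fold lower than in control_SMPD1 (1.26 to 1.74) and 1.42-fold lower than in control_GPR64 (1.05 to 1.91). In siGPR64, it stood 1.69-fold above control_GPR64 (1.19 to 2.42) and 1.63-fold above control_SMPD1 (1.27 to 2.08). Per kilobase, the level of CDKN2C was 29.03 CPM and that of CDKN2D 8.96 CPM in siSMPD1, while in siGPR64 they were closer, at 24.8 and 21.6 CPM. CDKN2C held 87.7% of INK4 reads in siSMPD1 (86.2 to 89.1) and 79.4% in control_SMPD1 (77.5 to 81.2), and 71.7% in siGPR64 (66.1 to 76.8) and 77.0% in control_GPR64 (71.1 to 82.1). The remaining INK4 genes, CDKN2A and CDKN2B, had 0 counts in all 4 libraries.

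**Figure D3:**
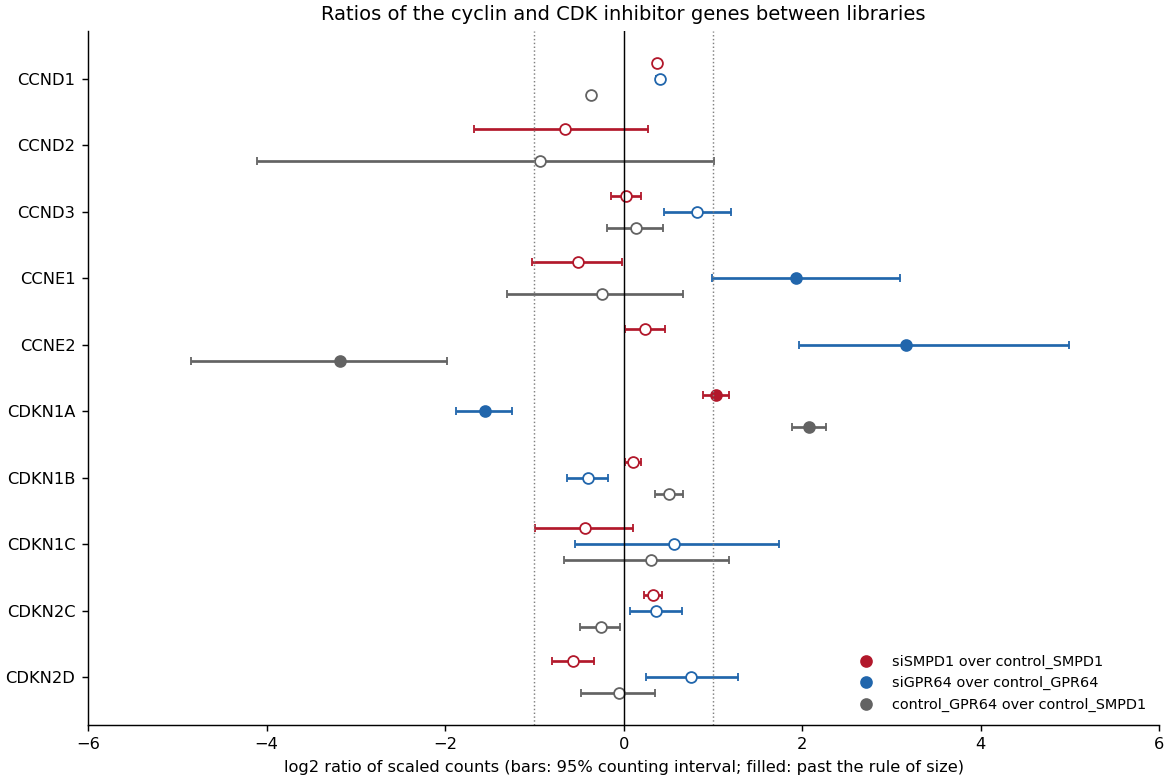
log2 ratio of scaled counts for each gene in siSMPD1 over control_SMPD1, siGPR64 over control_GPR64 and control_GPR64 over control_SMPD1. Bars are 95% counting intervals, filled points are past the rule of size, dotted lines mark 2-fold, and CCND2 has no point for siGPR64 because of 0 counts there; the gap between the scrambled libraries is widest for CCNE2, at -3.18 beside 3.17 in siGPR64 over control_GPR64, and next widest for CDKN1A, at 2.07.

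The comparisons with control_GPR64 share that library, so their values are set side by side and not counted as separate evidence. The median log2 ratio of the measured members was 0.06 in siSMPD1 (10 members; -0.00 over all 12749 measured genes), 0.56 in siGPR64 (9 members; 0.01 over 12830 genes) and -0.15 between the scrambled libraries (10 members; -0.01 over 12798 genes). The siGPR64 median is the ratio of CDKN1C, whose log2 interval of -0.55 to 1.74 spans equality, and it leaves out CCND2. In siSMPD1, CDKN1A was the single member higher past the rule, where 2.49% of measured genes were higher and 1.11% lower. In siGPR64, CCNE1 and CCNE2 were higher, where 6.56% of genes were, and CDKN1A was lower, where 5.18% were. Against control_SMPD1 in place of control_GPR64, CCNE1 alone was past the rule in siGPR64, where 11.4% of genes were, 6.18% higher and 5.25% lower. Against control_GPR64 in place of control_SMPD1, CCNE2 was higher in siSMPD1 (10.5% of genes were) and CDKN1A lower (8.02% were), with 18.5% past the rule in all.

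The kinases and pocket proteins that these genes act on were then read in 8 lists of the pathway. Over all measured genes, 2.49% were higher and 1.11% lower past the rule in siSMPD1, and 6.56% and 5.18% in siGPR64. Of 10 genes for CDKs, their activating kinase and pocket proteins, none was past the rule in siSMPD1 (median -0.38) and 1 was higher in siGPR64 (median -0.17). That gene was CDC25A, the phosphatase that activates CDK2, at 69.7 CPM in siGPR64 and 25.7 CPM in control_GPR64, 2.7-fold higher (2.06 to 3.6). It stood at 59.6 CPM in control_SMPD1, within 1.17-fold of siGPR64. CDK4 had 238 CPM in siSMPD1 and 254 CPM in control_SMPD1, and 303 CPM in siGPR64 and 204 CPM in control_GPR64. CDK6 had 20.4 CPM in siSMPD1 and 31.3 CPM in control_SMPD1, and 17.2 CPM in siGPR64 and 8.91 CPM in control_GPR64. Control_GPR64 was thus 3.5-fold lower for CDK6 than control_SMPD1 (2.38 to 5.43). RB1 lay between 105.4 and 133.8 CPM in the 4 libraries. INK4 reads numbered 42.6 per 100 reads of CDK4 and CDK6 in siSMPD1 (40.4 to 44.8) and 33.8 in control_SMPD1 (32.0 to 35.6), and 35.8 in siGPR64 (31.2 to 41.0) and 39.1 in control_GPR64 (33.6 to 45.5).

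The E-type cyclin genes are known E2F targets, and the E2F and DP genes themselves were read next. In siGPR64 over control_GPR64, 4 of these 10 genes were past the rule and higher and none lower, with a list median of 0.50, where 6.56% of all measured genes were higher. Between the scrambled libraries 2 of the 10 were lower in control_GPR64 and none higher, with a median of -0.31. Of all measured genes, 8.33% were lower in that comparison and 7.02% higher. E2F1, an activator, had 148.9 CPM in siGPR64 and 72.6 CPM in control_GPR64, 2.05-fold higher (1.73 to 2.44). The repressors E2F7 and E2F8 were 2.13-fold (1.56 to 2.96) and 2.88-fold higher (1.85 to 4.75), and E2F5 was 2.1-fold higher (1.6 to 2.79). Against control_SMPD1, the siGPR64 log2 ratios were 0.55 for E2F1, 0.71 for E2F5, 0.06 for E2F7 and -0.54 for E2F8, and none of the 10 was past the rule. In siSMPD1 none of the 10 was past the rule either (median 0.06), with E2F7 the furthest at 1.83-fold higher (1.68 to 1.99).

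Of 30 replication and G1/S genes, none was past the rule in siSMPD1 (median -0.04), where 3.6% of all measured genes were. In siGPR64, where 6.56% of measured genes were higher, 1 of the 30 was higher (median 0.21). That gene was ORC1, a subunit of the origin recognition complex, at 70.5 CPM in siGPR64 and 32.5 CPM in control_GPR64, 2.16-fold higher (1.68 to 2.81), but at 90.2 CPM in control_SMPD1. The A and B cyclins, which act from S phase to mitosis, were listed with cyclin F, and the 6 genes had medians of -0.07 in siSMPD1 and -0.21 in siGPR64. CCNA1, a cyclin A of germ cells, was the single one past the rule, at 30.7 CPM in siSMPD1 and 14.8 CPM in control_SMPD1, 2.07-fold higher (1.8 to 2.4). None of 19 genes for the turnover of cyclins and inhibitors was past the rule in either pair, with medians of -0.05 and 0.07. SKP2, which marks the p27 protein for degradation, had 122.3 CPM in siSMPD1 and 193.4 CPM in control_SMPD1, 1.58-fold lower (1.5 to 1.67). RNF123, an alternative ubiquitin ligase for p27, had 18.8 CPM in siGPR64 and 37.0 CPM in control_GPR64, 1.96-fold lower (1.39 to 2.82). Of the other listed genes with a CDKN symbol the measured one was CDKN3. It had 53.1 CPM in siSMPD1 and 60.5 CPM in control_SMPD1, and 65.4 CPM in siGPR64 and 71.9 CPM in control_GPR64.

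Of 23 other genes known as p53 targets, 9 were lower and none higher in siGPR64, with a median of -0.54, where 5.18% of all measured genes were lower, and 14 did not pass the rule. Against control_SMPD1, 2 of the 23 were higher and 2 lower in siGPR64, with a median of -0.12, where 6.18% and 5.25% of measured genes were. In siGPR64 over control_GPR64, SESN2, a stress sensor of mTORC1 signalling, was 4.09-fold lower (3.34 to 5.08), and TNFRSF10B, a death receptor gene, 3.7-fold lower (3.22 to 4.28). GDF15, a stress cytokine gene, had 5.88 CPM in siGPR64 and 69.9 CPM in control_GPR64, and GADD45A, a growth arrest gene, 74.4 and 197.3 CPM. In control_SMPD1, GDF15 had 3.02 CPM and GADD45A 37.9 CPM, both under siGPR64. SESN2 had 67.4 CPM and TNFRSF10B 213 CPM there, above their siGPR64 levels of 43.5 and 96.8 CPM. Several of these genes are also known targets of ATF4 and DDIT3. DDIT3 itself had 43.1 CPM in siGPR64 and 152.8 CPM in control_GPR64, 3.53-fold lower (2.87 to 4.41), and 61.7 CPM in control_SMPD1. The part of that response in the CDKN1A values was not tested. Between the scrambled libraries 6 of the 23 were higher in control_GPR64 and none lower, with a median of 0.44. Of all measured genes, 7.02% were higher in that comparison and 8.33% lower. In siSMPD1, 2 of the 23 were higher and 2 lower, with a median of 0.01, where 2.49% and 1.11% of all measured genes were. TP53INP1 had 11.4 CPM in siSMPD1 and 4.58 CPM in control_SMPD1, and TP53I3 had 4.29 and 1.98 CPM, while PMAIP1 had 62.9 CPM in siSMPD1 and 132.1 CPM in control_SMPD1.

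Of 18 measured upstream transcription factors, 1 was higher and 1 lower in siSMPD1 (median 0.03), where 2.49% and 1.11% of all measured genes were. In siGPR64, 1 was higher and 3 lower (median -0.20), where 6.56% and 5.18% of measured genes were. FOXO3 and FOXO4, whose proteins activate CDKN1B when insulin signalling is low, were 2.12-fold (1.57 to 2.94) and 2.26-fold lower (1.26 to 4.37) in siGPR64 than in control_GPR64. FOXO3 had 23.1 CPM in siGPR64 and 49.3 CPM in control_GPR64, but 14.2 CPM in control_SMPD1. FOXO4 had 6.27 CPM in siGPR64 and 14.4 CPM in control_GPR64, but 6.77 CPM in control_SMPD1. FOXO1 lay the other way, at 11.4 CPM in siGPR64 and 6.85 CPM in control_GPR64, with overlapping counting intervals. FOSL1, an AP-1 subunit, was 3.61-fold higher in siGPR64 (2.14 to 6.65). In siSMPD1, MXD4, a MAX partner that opposes MYC, was 2.06-fold higher than in control_SMPD1 (1.77 to 2.41), and FOS was the lower one. MXD4 had 26.9 CPM in siSMPD1 and 13.1 CPM in control_SMPD1, but 22.95 CPM in control_GPR64. FOS had 5.4 CPM in siSMPD1, 13.1 CPM in control_SMPD1 and 14.7 CPM in control_GPR64. MYC had 167.3 CPM in siSMPD1 and 168.2 CPM in control_SMPD1, and 248 CPM in siGPR64 and 189.1 CPM in control_GPR64.

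**Figure D4:**
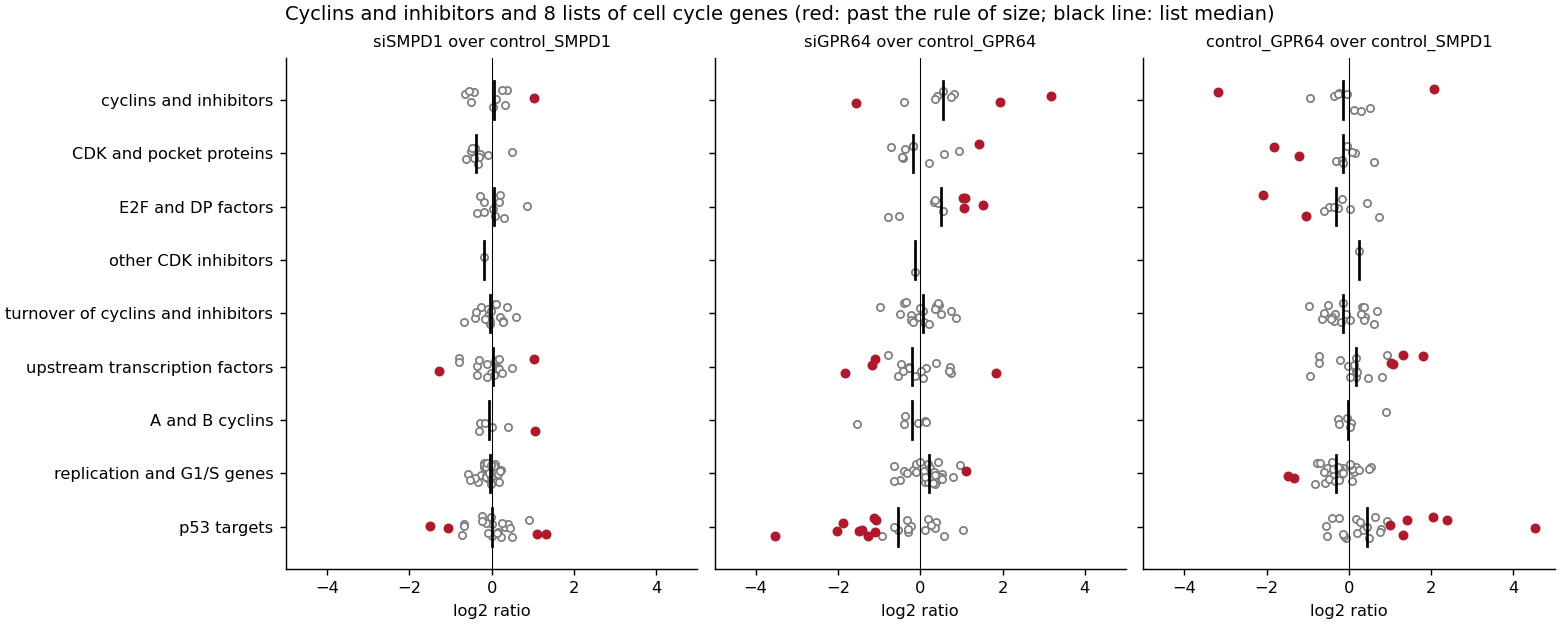
log2 ratio of each measured gene in the 10 cyclin and inhibitor genes and 8 lists of the pathway, for siSMPD1 over control_SMPD1, siGPR64 over control_GPR64 and control_GPR64 over control_SMPD1. Red points are past the rule of size, open points are not, black lines are list medians, and vertical jitter carries no value; the median of p53 targets is -0.54 in siGPR64 and 0.44 between the scrambled libraries.

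The genes whose pattern over the 4 libraries lay nearest to each shifted member were found by Euclidean distance between centred log2 levels, with a minimum mean level of 10 CPM. Nearest to CCNE1 were LAMA3, a laminin chain, NETO2 and SLC38A7, at distances of 0.31, 0.38 and 0.46 among 9805 candidates. LAMA3 had 7.52 CPM in siSMPD1 and 8.48 CPM in control_SMPD1, and 28.2 CPM in siGPR64 and 6.51 CPM in control_GPR64. Nearest to CCNE2 were CHST6, MICB and CHST1, at 0.26, 0.29 and 0.31, and CHST6 had 36.4 CPM in siGPR64 and 3.77 CPM in control_GPR64. Nearest to CDKN1A were JUP, HOXD4 and NYNRIN, at 0.35, 0.38 and 0.46, and JUP, a junction protein gene, had 55.5 CPM in control_GPR64 and 12.1 CPM in control_SMPD1. These distances rest on 4 libraries and describe likeness of levels alone.

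Markers of other cell types were read in 4 lists, of which the muscle list is given above. Of 5 immune markers CD68 alone reached 1 CPM, with a summed level of the list of 13.4 CPM in siSMPD1 and 10.6 CPM in control_SMPD1, and 7.44 CPM in siGPR64 and 3.08 CPM in control_GPR64, and CD3E at 0 counts in all 4. Of 5 epithelial markers the keratin genes KRT8 and KRT18 alone reached 1 CPM, with a summed level of 148.1 CPM in siSMPD1 and 180.5 CPM in control_SMPD1, and 168.8 CPM in siGPR64 and 85.3 CPM in control_GPR64. The epithelial genes EPCAM and CDH1 had at most 5 counts and 1 count. Of 7 fibroblast and endothelial markers the summed level was 1.38 CPM in siSMPD1 and 3.28 CPM in control_SMPD1, and 2.74 CPM in siGPR64 and 4.45 CPM in control_GPR64, and TEK had 0 counts in all 4. The keratin and CD68 levels were lowest in control_GPR64, as was CCNE2, and their part in the values above was not tested.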

How the data were processed

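Ribosome-depleted total RNA of A673 cells was sequenced from both ends, as the labels' protocols state. Tools in the submitters' processing notes are HTSeq, SAMtools, TopHat2 and bcl2fastq, with hg19 as build; their versions, the annotation, the strand setting and the counting mode are not stated there. Each deposited file gives raw counts of reads by gene symbol, not normalized by the authors, for 1 of 4 libraries in 4 groups named after the titles. The 5 HTSeq summary lines, 36.5% to 44.8% of all entries, were left out. No 2 libraries held near-identical counts.

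Counts were scaled with TMM factors (edgeR 4.0.16, R 4.3.3) over genes with at least 1 CPM in a library. Log2 ratios had 0.5 count added, scaled by library size, and folds are their sizes. The 95% intervals are exact (Clopper-Pearson) for how the reads of a gene divide between 2 libraries. Reads without molecular identifiers are not independent molecules, so intervals and limits cover counting error only. A count of 0 was read as up to 3 counts. The rule of size stands in for a test. Alternative fits with DESeq2 1.42.0 and with edgeR's quasi-likelihood test took both controls as 1 group. Exon lengths come from GENCODE 29, which is of another build, for 19747 symbols.

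The 10 genes and the 13 gene lists, with 160 entries, were chosen with earlier results of these data known. Genes named are the 10, the targets, the furthest genes of each list (4 at most past the rule, 2 where none was) and the 3 nearest patterns. INTS8 and ORAOV1, further list members given as levels and the genes at 0 were added with their values known, and some genes that the rule would name are left unprinted.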

Additional observations from a re-analysis of the deposited data

How the results depend on the processing

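With DESeq2 size factors, the total gene count, no minimum CPM, a mean of at least 5 CPM or a prior of 2 counts, the counts of cyclin and inhibitor genes past the rule of size stayed at 1 in siSMPD1, 3 in siGPR64 and 2 between the scrambled libraries. At 1.5-fold, 5 of them were past it in siGPR64, where 3148 of all 12830 measured genes were. Against the control of the other pair, 2 were in siSMPD1 (18.5% of measured genes were) and 1 in siGPR64 (11.4% were). There CDKN1A had log2 ratios of -1.04 in siSMPD1 and 0.52 in siGPR64, the opposite sign to the paired ratios. With both controls as 1 group, edgeR and DESeq2 called 0 members in either knockdown at an adjusted p under 0.05, with 1 member at an unadjusted p under 0.05 in siGPR64 by edgeR and 0 otherwise. CDKN1A in siSMPD1 then had log2 ratios of -0.33 (edgeR) and -0.34 (DESeq2). This fit has 1 residual degree of freedom, and the gap between the controls enters it as spread. Over all genes, the siSMPD1 count of 459 became 697 with no minimum CPM, 198 at 5 CPM, 1535 at 1.5-fold and 2390 against the other control. At 1.5-fold the counts were 3148 in siGPR64 and 3985 between the scrambled libraries. The pooled fits called 0 genes by edgeR in either knockdown (179 and 313 at an unadjusted p under 0.05), and 1 in siSMPD1 and 0 in siGPR64 by DESeq2 (175 and 212). No paired analysis was possible because each group has 1 library with no replicate number. Depth limits CCND2, CDKN1C and the E-type cyclins in the GPR64 pair, where CCNE2 rests on 5 counts in control_GPR64.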
